A study of Mus musculus with 4 samples.

Results

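The fibroblast growth factor (FGF) genes examined here are 3 receptor genes (Fgfr1, Fgfr2 and Fgfr3), 3 ligand genes (Fgf2, Fgf7 and Fgf18) and 1 feedback inhibitor gene (Spry2), which make 7 of the 21887 protein-coding genes of the RefSeq annotation of GRCm38. They were chosen by name, and every ATAC-seq peak inside such a gene or within 50 kb of its ends was taken. In ATAC-seq, the transposase Tn5 cuts and tags DNA where chromatin is open, and a pile of sequenced fragments marks an accessible region. The 4 libraries held 147 and 133 such peaks at passage 0 (P0) and 95 and 90 at passage 8 (P8), which overlapped into 166 sites, of 170558 sites in the genome.

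The chondrocytes were taken from C57BL/6 mouse knee cartilage at postnatal days 0 to 4 and were grown in DMEM/F12 with fetal bovine serum. P0 cells had been in culture for under 24 h, and P8 cells had been passaged 8 times, each time after growing from 24000 to 48000 cells per cm2. The labels name no engineered allele and no added agent, and they do not say whether the 2 libraries of a passage came from separate litters or cultures, so their spread may be technical. The peak lists tell the libraries apart without replicate numbers, and the letters A and B stand for the 2 libraries of each passage. Where 4 values follow each other they are those of P0 A, P0 B, P8 A and P8 B, and a pair of values gives A before B.

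FGF ligands bind receptor tyrosine kinases on the cell surface together with heparan sulfate, and the activated receptor signals through the adaptor FRS2 to the RAS and MAP kinase cascade. Sprouty proteins are induced by this cascade and restrain it. In the growth plate, FGFR3 is the receptor of proliferating and prehypertrophic chondrocytes and slows their division, FGF18 is a ligand made by the surrounding perichondrium, FGFR1 is found in hypertrophic chondrocytes, and FGFR2 marks condensing mesenchyme and perichondrium. FGF2 is a broadly acting ligand that is also stored in cartilage matrix, and FGF7 is a ligand of mesenchymal cells that acts through the epithelial form of FGFR2.

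The starts of 4 of these genes show how unlike their promoters were in sequence and in accessibility, and they are printed here as 250 bases upstream of the RefSeq start (GRCm38.p6, 5′ to 3′ on the strand of the gene). Capitals mark the GC box GGGCGG, read on both strands, so that CCGCCC is its reverse. Fgfr3 is the gene of the 7 that differed most between passages, Fgf18 and Fgf7 are the ligand genes with fewer peaks at P8, and Fgfr2 had no peak over these bases in any library. The promoter printed for Fgfr3 is that of the first of its 2 listed starts and lies at chr5:33721474-33721723 on the plus strand. That of Fgf18 lies at chr11:33147401-33147650 on the minus strand, that of Fgf7 at chr2:126034408-126034657 on the plus strand and that of Fgfr2 at chr7:130266809-130267058 on the minus strand.
Fgfr3: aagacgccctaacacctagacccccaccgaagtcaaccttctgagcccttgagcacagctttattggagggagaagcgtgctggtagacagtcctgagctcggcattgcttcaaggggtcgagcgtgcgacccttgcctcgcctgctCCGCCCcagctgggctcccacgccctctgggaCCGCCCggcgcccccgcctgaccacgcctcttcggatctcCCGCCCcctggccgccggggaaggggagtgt
Fgf18: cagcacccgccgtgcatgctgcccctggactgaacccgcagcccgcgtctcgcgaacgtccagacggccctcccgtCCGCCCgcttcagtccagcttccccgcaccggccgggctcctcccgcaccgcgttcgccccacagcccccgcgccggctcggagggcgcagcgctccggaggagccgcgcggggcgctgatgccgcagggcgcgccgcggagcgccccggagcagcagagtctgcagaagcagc
Fgf7: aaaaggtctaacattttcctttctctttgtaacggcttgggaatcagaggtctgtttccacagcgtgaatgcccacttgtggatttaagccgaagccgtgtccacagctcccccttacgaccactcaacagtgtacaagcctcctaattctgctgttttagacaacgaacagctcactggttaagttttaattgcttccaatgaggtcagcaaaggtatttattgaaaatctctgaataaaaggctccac
Fgfr2: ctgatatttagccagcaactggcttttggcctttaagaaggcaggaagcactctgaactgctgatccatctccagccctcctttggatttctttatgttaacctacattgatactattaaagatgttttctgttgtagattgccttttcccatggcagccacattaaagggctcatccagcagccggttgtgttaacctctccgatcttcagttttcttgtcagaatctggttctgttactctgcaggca

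The Fgfr3 and Fgf18 promoters were rich in G and C, at 66.8% and 77.2%, and those of Fgf7 and Fgfr2 were poor, at 43.6% and 44%, beside a median of 55.2% over 17492 promoters of this length. Fgfr3 held 3 GC boxes and Fgf18 held 1, and 42.3% of all promoters held at least 1. The AP-1 site TGANTCA, the SOX site AACAAT, the RUNX site TGTGGT and the ETS site CCGGAA, none of which contains another, were in none of these 4 promoters on either strand. They were found in 6.21%, 8.58%, 12.6% and 15.2% of all promoters. Peaks covered 97, 116, 74 and 60 of the 250 bases at Fgfr3. The promoter of its second listed start (chr5:33722056-33722305), not printed, had 72.8% G and C and 2 GC boxes, with 61, 0, 0 and 80 bases covered. At Fgf18 they covered 183, 180, 184 and 116 bases, and at Fgf7 212, 250, 217 and 147 bases. The accessible start of Fgfr2 lay inside the gene instead, 0.518 kb downstream of the annotated start.

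Depth and cell identity were examined first. The P0 libraries had 145703 and 119974 peaks in all, the P8 libraries had 89610 and 99784, and the lowest local background of the peak caller, which tracks sequencing depth, was 194, 162, 140 and 134 tags per 10 kb. Both P0 libraries were therefore deeper than both P8 libraries, which moves with every difference in peak number below. Peak numbers are given again with p-values recomputed after each library was scaled to the lowest background of the 4 (matched background). They are also given with the same number of top peaks in each library. Of 9 chondrocyte marker genes, 8 had a peak within 1 kb of a gene end in all 4 libraries, and Matn1 had 1 in both P0 libraries and none at P8. Of 5 fibroblast markers 4 did so, and Thy1 had none in P8 library B. Of 5 blood and macrophage markers only Spi1 did, Cd68 had peaks at P0 only, and Ptprc, Csf1r and Adgre1 had no peak. Of the endothelial and muscle markers Pecam1, Cdh5, Myf5 and Pax7 had no peak, whereas Kdr, Tek and Myod1 had one in all 4 libraries. Their part in the results was not tested. In these bulk libraries, fewer cells with an open site and less opening per cell cannot be told apart.

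P0 libraries held more peaks than P8 libraries at 5 of the 7 genes (Fgfr2, Fgfr3, Fgf7, Fgf18 and Spry2), and the numbers overlapped at Fgfr1 and Fgf2. Over all protein-coding genes with a peak, both P0 libraries stood above both P8 libraries in 48.3% and both P8 libraries above both P0 libraries in 3.95%, and the count of 5 of 7 is to be read against these shares. The number of peaks over the 7 genes averaged 140 ± 9.90 at P0 against 92.5 ± 3.54 at P8 (SD, n = 2 for both), a ratio of 1.51 ± 0.122 (SD propagated from both groups), beside 1.40 ± 0.220 for all peaks of the genome. Without Fgfr3 the ratio was 1.36 ± 0.149. With 2 libraries in each group the exact two-sided permutation test cannot give a p below 0.333, which is the p for the 7 genes together and for each of the 5. The same 5 genes kept this order at matched background, where 46.8% of all genes had it and 4.52% the opposite. With the same number of top peaks in each library, 4 of the 7 had more peaks in both P0 libraries (Fgfr2, Fgfr3, Fgf7 and Fgf18) and 2 had more in both P8 libraries (Fgfr1 and Spry2), beside 16.5% and 21.4% of all genes.

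**Figure D1:**
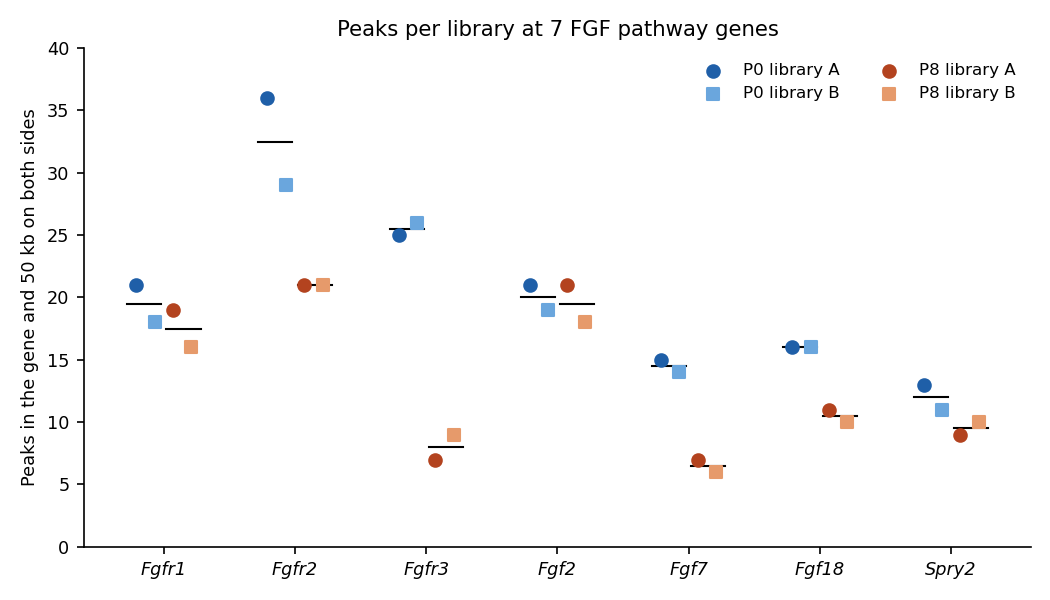
Number of ATAC-seq peaks (y axis) inside each gene and within 50 kb of its ends, for the 7 FGF pathway genes (x axis). Points are the 4 libraries and black lines the mean of each passage (n = 2); Fgfr3 has 25 and 26 peaks at P0 against 7 and 9 at P8, while the points of Fgfr1 and Fgf2 overlap.

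Fgfr3 encodes the receptor that restrains chondrocyte division. Its gene (chr5:33721724-33737068, plus strand) and flanks held 25 and 26 peaks in the P0 libraries against 7 and 9 in the P8 libraries. Both P0 libraries stood far above both P8 libraries, with means of 25.5 ± 0.707 and 8 ± 1.41 (SD, n = 2) and a ratio of 3.19 ± 0.570. Among all genes with a ratio, 2.11% had one at least as high, and the share was 1.87% at matched background and 0.994% with the same number of top peaks in each library. With flanks of 100 kb the ratio of Fgfr3 was 1.97. Inside the gene body there were 4.5 ± 0.707 peaks at P0 and 1 ± 0 at P8. Per 100 kb of window, Fgfr3 had the densest peaks of the 7 genes at P0 (21.7 and 22.5) but not at P8 (6.07 and 7.80), where only Fgf7, and in library B also Fgf18 (7.67), had fewer.

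Of the 25 sites of the Fgfr3 window, 14 had a peak in both P0 libraries and in neither P8 library, which is 56%, against 17.1% of all sites in the genome. None had the opposite pattern, which 1.82% of all sites had, and 7 were held by all 4 libraries. The P0-only sites were weak one by one. The strongest 3 lay 16.2, 40.5 and 40.1 kb upstream of the start, with fold enrichments over the local background of 4.29 and 5.35, of 4.42 and 4.81, and of 3.61 and 4.61. All 14 were kept in both P0 libraries at matched background. The count was lower where fewer peaks were used, with 7 of 20 sites P0-only at a −log10 q of at least 5 (35%, against 19.7% of all sites) and 6 of 23 with the same number of top peaks (26.1%, against 11%).

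**Figure D2:**
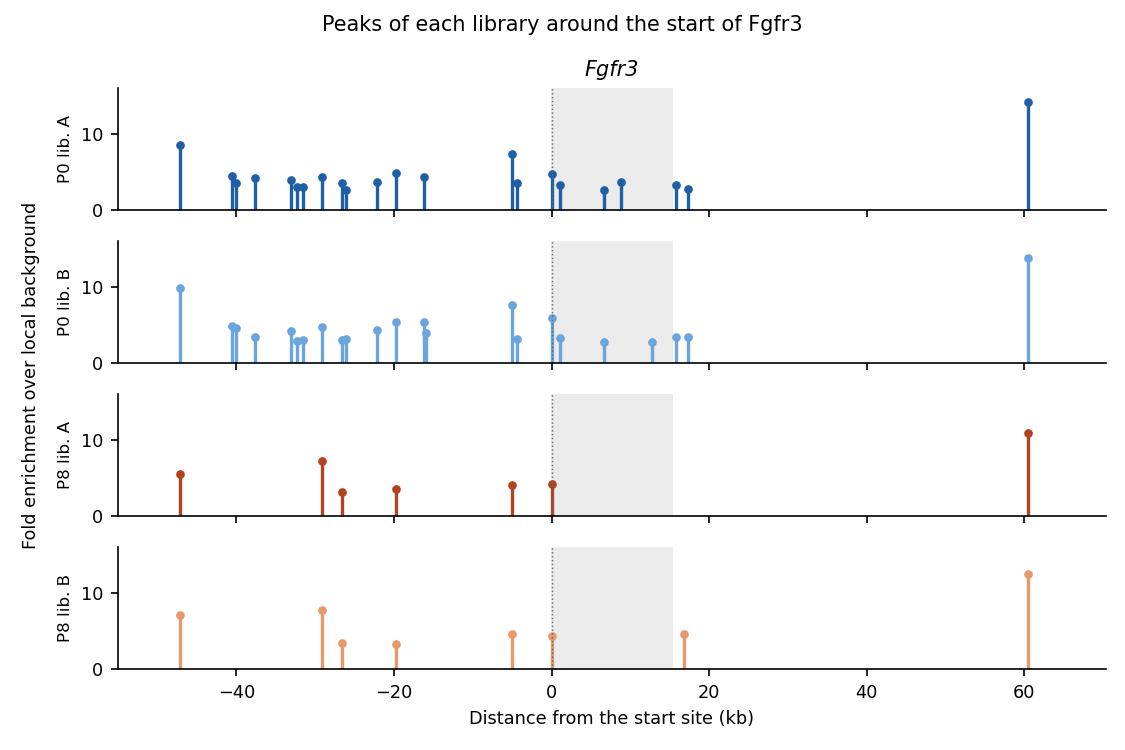
Fold enrichment over local background (y axis) of the sites around Fgfr3 by distance of the summit from the start site in kb (x axis), 1 row for each library, with the gene body in grey. The highest peak of a library in each site is drawn; the P0 rows hold peaks all along the upstream flank and the gene, and the P8 rows hold 7 sites in common with P0, of which 1 is at the start.

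Within the P0 libraries, these weak peaks lay on a broad rise in the signal. The peak caller records the tags in the 10 kb around a summit where these exceed the genome-wide rate, and this local tag density was divided by the lowest background of the library to take out depth. It was not among the planned measures. Sites with summits less than 10 kb apart share part of these tags, so tallies of sites by density count some tags more than once. Going along the chromosome toward the gene, the density in the P0 libraries was 6.85 and 6.60 times the lowest background at 33.0 kb upstream, 10.3 and 9.87 times at 29.2 kb, 5.91 and 5.62 times at 22.2 kb and 2.58 and 2.47 times at 16.2 kb. It then stood at 5.23 and 5.21 times at the start site of Fgfr3 and at 4.81 and 4.26 times at 17.3 kb, just past the end of the gene. In tags, the 10 kb around the site at 29.2 kb upstream (chr5:33692318-33692853) held 1993, 1602, 490 and 600 tags in the 4 libraries. Relative to the lowest background, the P8 values there were 3.50 and 4.47 times, so that the mean at P0 was 2.53 times that at P8. Of all sites that 4 libraries held, 0.215% had a ratio that high, and the median ratio was 1.07. The sites at 33.0, 22.2, 16.2 and 17.3 kb were P0-only and have no P8 value, so they cannot be compared between passages. Where P8 had values, its density was raised in the same stretch, also at 26.6 kb upstream (3.41 and 4.16 times). It was 1.17 and 1.42 times at 47.1 kb and 1.87 and 1.68 times at 5.03 kb upstream.

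The fold enrichment at that site ran the other way. It was 4.37 and 4.73 at P0 against 7.21 and 7.81 at P8, although 67 and 59 tags piled up at the summit at P0 and only 32 and 41 at P8. The fold enrichment divides the summit by the local background, and that background was itself higher at P0, so the pileup was also divided by the lowest background of the library, a scale chosen after this was seen. On it the site had 47.3 and 49.8 at P0 and 31.3 and 41.9 at P8, which do not overlap. At the start site of Fgfr3 (chr5:33721608-33722135) the fold enrichment reached 4.76 and 5.85 at P0 against 4.18 and 4.33 at P8. The local tag density there was 2.07 times higher at P0, which 0.922% of all such sites reached.

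All 7 four-library sites of Fgfr3 had a higher local tag density in both P0 libraries than in both P8 libraries, where 51.3% of all such sites did, and 7 of 7 had a higher pileup over the lowest background, where 50.3% did. The density windows of the sites at 29.2 and 26.6 kb upstream share tags. By fold enrichment 5 of 7 were higher at P0 and 1, the site at 29.2 kb, was higher at P8, beside 49.9% and 11.6% of all such sites. After division by the library median at such sites, 3 were higher at P0 and 2 at P8, beside 21.5% and 34.1%. The largest fall in fold enrichment was 5.03 kb upstream of the start (chr5:33716500-33717253), where the values were 7.32 and 7.56 at P0 and 4.12 and 4.53 at P8, with means of 7.44 ± 0.172 and 4.32 ± 0.289 (SD, n = 2). At 47.1 kb upstream (chr5:33674222-33675020) they were 8.56 and 9.87 at P0 and 5.46 and 7.10 at P8.

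Other genes lie in this window. The strongest site, 60.5 kb downstream of the Fgfr3 start (fold enrichments of 14.2, 13.8, 10.9 and 12.5), was at the higher-coordinate end of Letm1, a mitochondrial ion carrier gene whose lower-coordinate end lies 2605 bp past the end of Fgfr3. Its local tag density differed between passages by 1.23 times, which 29.5% of all sites reached. Tacc3, a spindle protein gene, lies 49521 bp before Fgfr3, and the sites from 47.1 to 26.1 kb upstream were nearer to Tacc3 than to Fgfr3. Peaks alone do not assign them to either gene. With each peak given to its nearest protein-coding gene, 12 of the 25 sites stayed with Fgfr3 and the ratio of its peak numbers was 3.83.

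**Figure D3:**
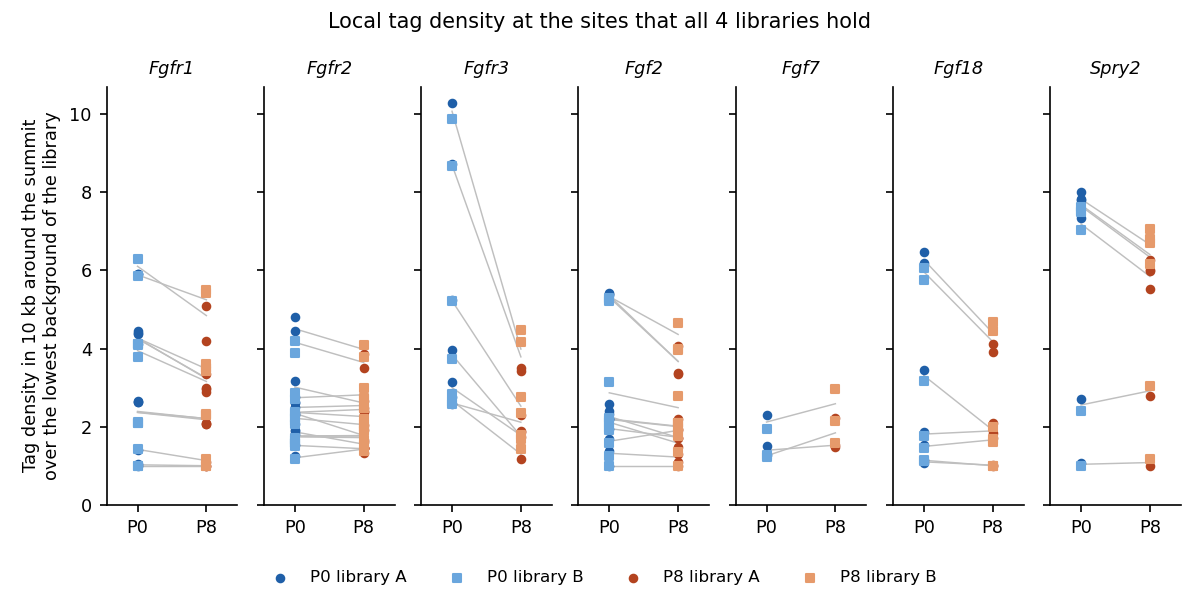
Tags in the 10 kb around the summit over the lowest background of the library (y axis, linear, no unit) at every site that all 4 libraries held, by passage (x axis) and gene. Points are libraries and grey lines join the passage means of a site; the 7 lines of Fgfr3 all fall from P0 to P8, from 10.3 and 9.87 to 3.50 and 4.47 at the highest site, and the 3 lines of Fgf7 do not fall.

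Fgfr1 encodes the receptor found in hypertrophic chondrocytes and in many mesenchymal cells. Its gene (chr8:25518759-25575718) and flanks held 21 and 18 peaks in the P0 libraries and 19 and 16 in the P8 libraries, which overlapped, with means of 19.5 ± 2.12 and 17.5 ± 2.12 (SD, n = 2, exact permutation p = 0.667). With the same number of top peaks in each library the order turned, with both P8 libraries above both P0 libraries (15, 12, 19 and 16) and a ratio of 0.771. Peaks covered 7281 ± 868 bases at P0 against 5566 ± 183 at P8 (SD, n = 2) without overlap. The ratio of 1.31 ± 0.162 stood beside 1.66 ± 0.317 for all peaks of the genome. Of its 25 sites, 12 were held by all 4 libraries (48.0%, against 32.4% of all sites) and 2 by both P0 libraries alone (8.00%, against 17.1%). The site at the lower-coordinate end of the gene (chr8:25518591-25519189) had fold enrichments of 8.02 and 9.18 at P0 and 8.95 and 8.12 at P8. The site 18.6 kb into the gene (chr8:25536424-25537925) had 8.22, 8.90, 7.25 and 8.59. Both overlapped between passages. The strongest site lay in the neighbouring gene Letm2, with 9.00 and 11.2 at P0 and 7.58 and 8.82 at P8, which did not overlap. The 2 P0-only sites had 6.62 and 5.49, and 4.17 and 4.12. Of the 12 shared sites, 8 had a higher local tag density in both P0 libraries, where 51.3% of all such sites did. Several of these lie less than 10 kb apart and share tags, such as those 0.021, 0.612 and 2.87 kb into the gene.

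Fgfr2 encodes the receptor of condensing mesenchyme and perichondrium. Its gene (chr7:130162451-130266808, minus strand), the longest of the 7, and its flanks held 36 and 29 peaks at P0 and 21 and 21 at P8. The ratio was 1.55 ± 0.236, which 26.8% of all genes reached, and it was 1.23 with the same number of top peaks. Of 39 sites, 15 were held by all 4 libraries (38.5%, against 32.4% of all sites) and 8 by both P0 libraries alone (20.5%, close to the 17.1% of all sites). The strongest site, 6.76 kb upstream of the start (chr7:130273221-130273807), had 12.3 and 12.6 at P0 and 12.7 and 11.2 at P8, which overlapped. The site just inside the start (chr7:130265864-130266587) had 6.58 and 8.58 at P0 and 6.53 and 5.97 at P8. These groups met closely without overlapping. The strongest P0-only sites were far downstream, at 137 kb from the start with 8.34 and 8.38 and at 143 kb with 6.21 and 9.15, and inside the gene at 13.9 kb with 6.20 and 6.20. Fgfr2 also held the 1 site of all 166 that both P8 libraries and neither P0 library had, 3.70 kb into the gene (chr7:130262980-130263147), at a low fold enrichment of 3.27 and 3.16. Neighbouring sites at 2.60 and 1.66 kb had peaks at P0, and with a reciprocal overlap of 50% for merging there were 2 such sites among the 7 genes. No other protein-coding gene ends in this window.

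Fgf18 encodes the growth-plate ligand of FGFR3. Its gene (chr11:33116970-33147400, minus strand) and flanks held 16 and 16 peaks at P0 and 11 and 10 at P8, a ratio of 1.52 ± 0.103 that 28.5% of all genes reached. The difference lay outside the gene, at 14 ± 0 peaks against 8 ± 1.41 (SD, n = 2), and inside it the numbers were 2 ± 0 and 2.5 ± 0.707, so that the direction turned in the gene body alone (ratio 0.800) and with flanks of 10 kb (0.875). The strongest site, 76.6 kb from the start and past the end of the gene (chr11:33070485-33071203), had 14.6 and 14.9 at P0 and 8.60 and 11.7 at P8. The 2 next strong sites on that side were P0-only. At 69.1 kb from the start (chr11:33078049-33078500) the fold enrichment was 11.65 and 10.99 in the P0 libraries, and at 59.0 kb (chr11:33088076-33088746) it was 10.6 and 9.51, the highest values among all 40 P0-only sites of the 7 genes. One more P0-only site, at 44.3 kb, was weak (4.31 and 4.88). No other protein-coding gene ends on this side of the window, and Npm1 lies upstream of the start.

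The start of Fgf18 (chr11:33147214-33147583) did not follow these distal sites. Its fold enrichment of 3.49 and 3.71 at P0 lay below the 4.41 and 4.11 of P8, while its pileup of 33 and 28 tags at P0 lay above the 21 and 21 tags of P8. Over the lowest background of the library, both the pileup and the local tag density were higher at P0, the latter 1.43 times, which 12.04% of all sites reached. The stronger peak 1.16 kb upstream of the start (chr11:33147619-33148889) had 5.50 and 6.72 at P0 and 6.72 and 6.80 at P8. Peaks within 1 kb of a gene end numbered 2 and 2 at P0 and 3 and 3 at P8, the single gene of the 7 with more at P8. This was a pattern of 8.86% of all genes with such a peak. In P8 library A the 3 peaks lay in the sites at the start and 1.16 kb upstream, which all 4 libraries held. In P8 library B, 1 of the 3 lay 0.942 kb into the gene, at a fold enrichment of 3.64, and was in that library alone. The excess at P8 therefore did not rest on a site that both P8 libraries added. Fgfr2 (2 and 2, then 1 and 1) and Fgfr3 (3 and 2, then 1 and 1) had more in both P0 libraries, as did 13.9% of all such genes. At both genes the site at the start was held by all 4 libraries. The P0-only site lay past the other end of the gene, at 535 bp for Fgfr2 and 909 bp for Fgfr3.

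**Figure D4:**
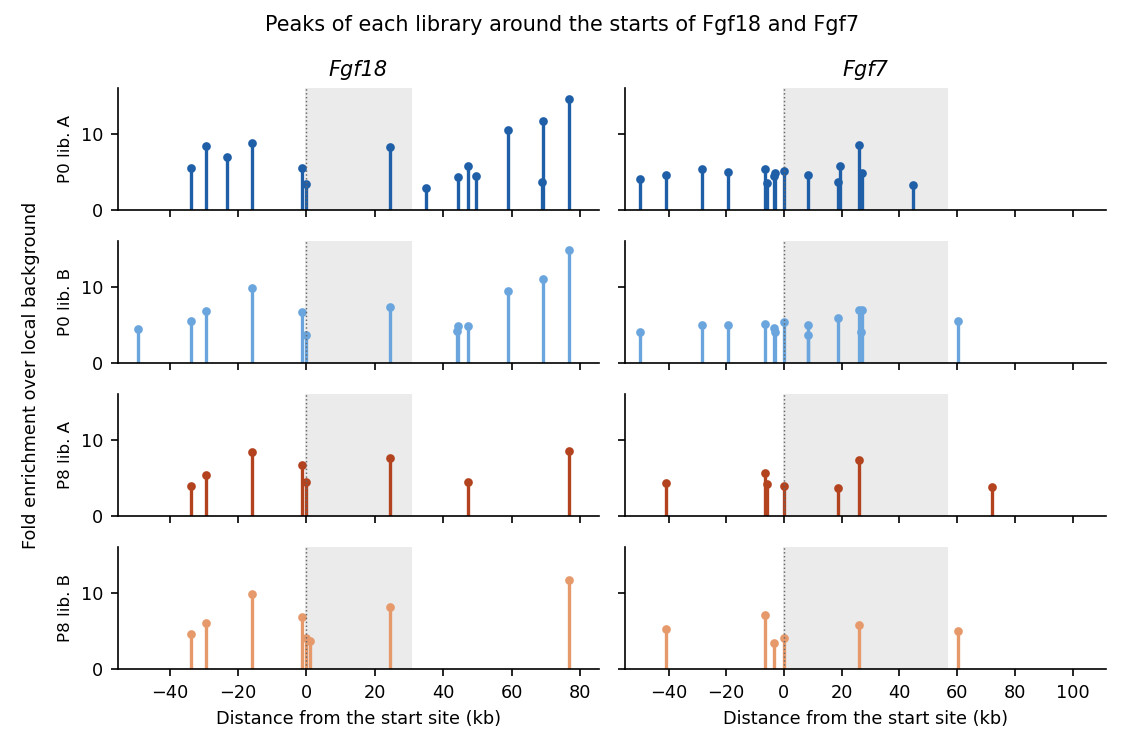
Fold enrichment over local background (y axis) of the sites around Fgf18 (left) and Fgf7 (right) by distance from the start site in kb (x axis), 1 row for each library, gene bodies in grey, the highest peak of a library in each site drawn. Past the end of Fgf18, the tall sites at 59.0 and 69.1 kb stand in both P0 rows alone; at Fgf7, the P8 rows hold few sites inside the gene.

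Fgf7 encodes a mesenchymal ligand. Its gene (chr2:126034658-126091185, plus strand) lies within Fam227b and had the fewest peaks for its length of the 7 genes in every library, at 9.58 and 8.94 per 100 kb at P0 and 4.47 and 3.83 at P8. The window held 15 and 14 peaks at P0 and 7 and 6 at P8, a ratio of 2.23 ± 0.266 that 6.79% of all genes reached. With the same number of top peaks the ratio was 1.50. Inside the gene there were 7 ± 0 peaks at P0 and 1.5 ± 0.707 at P8 (SD, n = 2). Of 19 sites, 6 were P0-only (31.6%, against 17.1% of all sites) and 3 were held by all 4 libraries (15.8%, against 32.4%). The start site (chr2:126034369-126034772) had a fold enrichment of 5.19 and 5.44 at P0 and 3.98 and 4.10 at P8, a small gap without overlap. Its pileup of 21, 17, 12 and 15 tags overlapped once divided by the lowest background. The strongest site, 26.1 kb into the gene (chr2:126060656-126060985), had 8.54 and 6.93 at P0 and 7.42 and 5.79 at P8. It overlapped by fold enrichment, and both its pileup and its tag density over the lowest background were higher at P8. The shared site 6.44 kb upstream had fold enrichments of 5.42 and 5.16 at P0 and 5.59 and 7.07 at P8. Its pileup over the lowest background was also higher at P8. By that pileup, 2 of the 3 shared sites were higher at P8 and 0 at P0, beside 15.5% and 50.3% of all such sites. The strongest P0-only sites, at 26.9 kb into the gene and 28.4 and 19.5 kb upstream, had 4.92 and 6.91, 5.38 and 5.03, and 4.97 and 5.03. Unlike Fgfr3, none of the 3 shared sites of Fgf7 had a higher tag density at P0 in both libraries, where 51.3% of all such sites did. Few sites were compared, and the difference between these genes was not tested.

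Fgf2 encodes the ligand stored in cartilage matrix, and its peak number differed least of the 7 genes. The gene (chr3:37348477-37410106, plus strand) and flanks held 21 and 19 peaks at P0 and 21 and 18 at P8, with a ratio of 1.03 ± 0.133 (exact permutation p = 1), and 80.7% of all genes had a ratio at least as high. With the same number of top peaks the ratio was 0.811. Peak numbers count every peak, and 1 site can hold several peaks of a library. The median peak width at Fgf2 was 292 and 256 bases at P0 and 116 and 250 at P8. Of its 24 sites, 12 were held by all 4 libraries (50.0%, against 32.4% of all sites). Another 8 had a peak in 1 or both P0 libraries and none at P8, and 1 had a peak at P8 only. The strongest site, 12.2 kb into the gene (chr3:37360514-37361231), had 14.2 and 10.8 at P0 and 11.7 and 12.8 at P8, and the start site (chr3:37348249-37348736) had 6.97, 5.10, 4.74 and 5.52. Both overlapped. By other measures P0 stood higher at Fgf2, as it did over the genome. Peaks covered 7893 ± 946 bases at P0 against 5551 ± 805 at P8 (SD, n = 2) without overlap. The ratio of 1.42 ± 0.268 stood beside 1.66 ± 0.317 for all peaks of the genome. Of the 12 shared sites, 8 had a higher local tag density in both P0 libraries, where 51.3% of all such sites did. Close neighbours among them share tags, such as the sites 31.9 and 33.0 kb into the gene. A site 36.2 kb upstream, at the facing ends of the ciliary genes Cetn4 and Bbs12, had 11.97 and 13.39 at P0 and 7.10 and 9.20 at P8, without overlap. A peak in both P0 libraries and neither P8 library was found at only 3 sites (12.5%, against 17.1% of all sites). The strongest of them had 5.38 and 4.12. Nudt6 overlaps the end of Fgf2 on the chromosome, and no site lay in the stretch they share.

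Spry2 encodes the Sprouty inhibitor that FGF signalling induces. Its short gene (chr14:105891947-105896819, minus strand) and flanks held 13 and 11 peaks at P0 and 9 and 10 at P8, a ratio of 1.26 ± 0.176 that 53.5% of all genes reached. The direction turned with the same number of top peaks, at 6 and 7 against 9 and 10 (0.684). The ratio was larger with a −log10 q of at least 5 (2.43) and in the gene body alone (2.50). The site at the start (chr14:105896798-105897770) was the strongest, with 5.87 and 7.46 at P0 and 7.42 and 6.26 at P8, which overlapped. Around its start Spry2 had a high local tag density in all 4 libraries. The medians over its 6 shared sites were 7.57 and 7.26 times the lowest background at P0 and 5.75 and 6.43 at P8. Most of these sites lie within 2.17 kb of the start, so their 10 kb windows share tags. The shared site 6.03 kb past the start had 2.71, 2.40, 2.79 and 3.04 times, and that 26.2 kb upstream had 1.07, 1, 1 and 1.16 times. Of its 16 sites, 4 were P0-only (25%, against 17.1% of all sites), the strongest 22.1 kb past the start (4.97 and 5.90). No other protein-coding gene ends in the window.

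Across the 7 genes, 40 of 166 sites were P0-only (24.1%, against 17.1% of all sites), 1 was P8-only and 62 were held by all 4 libraries (37.3%, against 32.4%). Without Fgfr3, 26 of 141 were P0-only (18.4%), near the background. At matched background the same count of 40 stood among 160 sites (25%, against 16.9% of all sites), with 1 P8-only (0.625%, against 2.03%). At a −log10 q of at least 5, 26 of 122 sites were P0-only (21.3%, against 19.7% of all sites) and 0 were P8-only (1.59%). With the same number of top peaks, 18 of 138 were P0-only (13%, against 11%) and 5 were P8-only (3.62%, against 5.08%). At the 62 shared sites, the fold enrichment was higher in both P0 libraries at 21 and in both P8 libraries at 6, and it overlapped at 35. Among all shared sites of the genome, 49.9% were higher at P0 and 11.6% at P8. Once each value was divided by the median of its library at such sites, 11 of the 62 were higher at P0 and 30 at P8, beside 21.5% and 34.1% of all shared sites. The local tag density over the lowest background was higher in both P0 libraries at 37 of the 62 and in both P8 libraries at 5, beside 51.3% and 15.6%, and the pileup over the lowest background at 29 and 5, beside 50.3% and 15.5%. Densities of sites less than 10 kb apart share tags. All 7 genes had a peak within 1 kb of a gene end in every library, as did 58.2% of all protein-coding genes.

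**Figure D5:**
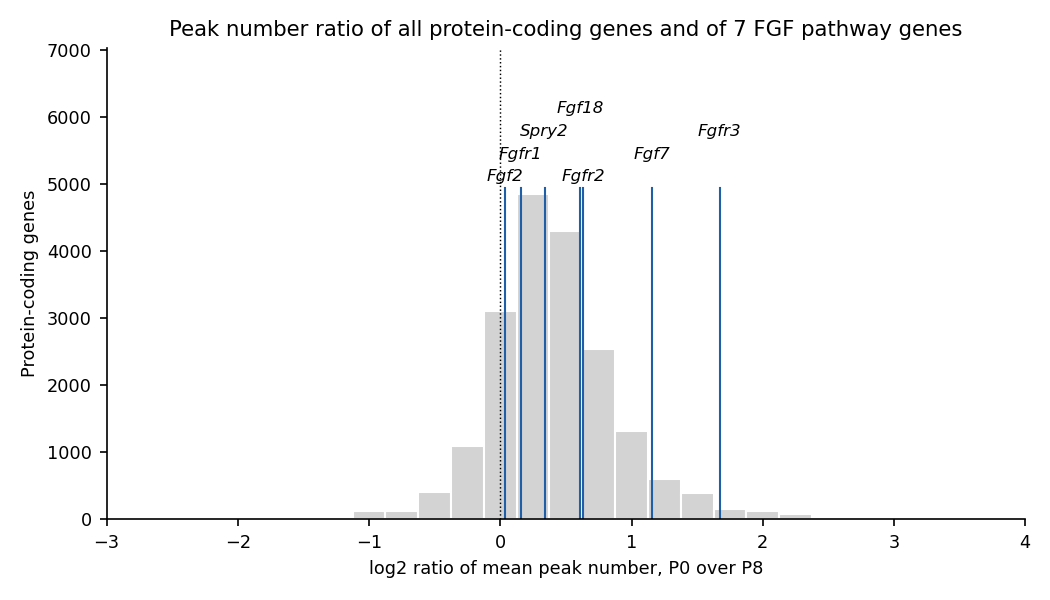
Number of protein-coding genes (y axis) by the log2 ratio of mean peak number, P0 over P8 (x axis), for genes with peaks at both passages (grey bars), with the 7 FGF pathway genes as blue lines. Fgfr3 lies at 1.67 and Fgf7 at 1.16, to the right of most genes, while the other 5 lie between 0.04 and 0.63, within the bulk.

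The wider pathway followed the genome. Of 52 further ligands, co-receptors, heparan sulfate carriers, adaptors, inhibitors and target transcription factors, 26 had more peaks in both P0 libraries, none had more in both P8 libraries and 26 overlapped or had no peak, so that 50.0% were higher at P0 against 48.3% of all genes. The median ratio was 1.30 for the list and 1.29 for all genes. By role, 7 of 19 ligand genes, 2 of 4 receptor and co-receptor genes, 5 of 9 heparan sulfate carriers, 4 of 8 adaptors, 4 of 8 inhibitors and 4 of 4 target transcription factors were higher at P0. At matched background 24 of the 52 were (46.2%, against 46.8% of all genes). With the same number of top peaks 12 were (23.1%, against 16.5%), and 10 were higher at P8 (19.2%, against 21.4%). The largest differences were at Gpc6 (79 and 64 peaks at P0, 45 and 53 at P8) and Gpc3 (24 and 15, then 3 and 4), which encode glypicans that carry heparan sulfate, and at Frs2 (35 and 32, then 17 and 22), the docking protein of the activated receptor. The genes of the list whose ratio was closest to that of Fgfr3, as the difference of log2 ratios over the 4 libraries, were Kl, a co-receptor of endocrine FGFs (11 and 7, then 3 and 2, ratio 3.60), Il17rd, an inhibitor of FGF signalling (22 and 21, then 8 and 11, ratio 2.26), and Dusp6, a phosphatase that acts on ERK (14 and 19, then 6 and 10, ratio 2.06). Spry3 had no peak in any library.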

How the data were processed

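Chromatin accessibility was measured by ATAC-seq in 4 libraries of mouse chondrocytes, 2 at P0 and 2 at P8. The authors sequenced 50 bp paired-end reads and aligned them with Bowtie2. The submitters' processing notes name the build mm10 and the tools MACS2, ChIPseeker, DiffBind and HOMER, and versions are not given in the sources used here. The authors called peaks in each library and deposited for every peak the pileup at the summit (a signal in tags, not scaled for depth). They also deposited the fold enrichment, a ratio of the pileup plus 1 to the local background plus 1, and the −log10 p-value and −log10 q-value. A further table holds only the authors' own comparison of passages (log2 fold changes, p-values and FDR) and was not used. Unused columns of values per library numbered 0.

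Peaks were grouped by the passage of their table and split into libraries by peak name, placed on RefSeq gene positions of GRCm38.p6, and merged into sites at an overlap of 1 bp. Peak numbers count every peak, also where 1 site holds several peaks of the same library. Starts and strands came from the RefSeq promoter table, which matched 6 of the 7 genes, so distances at Fgfr1 run from its lower-coordinate end. Fgfr3 has 2 listed starts, and its distances run from the nearer one. The local background was recovered from pileup and fold enrichment. A Poisson model with it gave the deposited −log10 p-values to within 0.0002, and as tags extended to 73 bp it gave tags per 10 kb. For matched background, the pileup and local background of each peak were scaled down together. The factor was the smallest lowest background of any library over that of the peak's own library. The p-value was then recalculated, and peaks with a −log10 p of 3.32 or more were kept, as were all peaks of the library with the smallest background. On simulated data of equal accessibility, the deeper library had 149% of the peaks of the shallower one before this step and 123% after it. The step thus reduced the effect of depth and did not remove it. Taking the 89610 peaks of lowest p-value from each library was the stricter setting. Sites that all 4 libraries held were compared by whether the values of the passages overlapped, beside the share of all features with that pattern, and numbers per library by exact two-sided permutation tests.

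The members and lists were chosen with earlier results of these data known. Named were the 7 genes, the strongest site of each, sites near its start, the strongest 3 sites of 1 passage only, genes whose ends lie in the windows, and of the pathway list the 3 genes of largest difference and the 3 with the ratio most like that of Fgfr3. The sites at 18.6 kb into Fgfr1 and 36.2 kb upstream of Fgf2, and the further shared sites of Fgfr3, were chosen after their values were seen. So were the site 6.44 kb upstream of Fgf7 and the shared sites of Spry2 away from its start. The software was scipy 1.17.1, pandas 2.3.3, numpy 2.4.6 and matplotlib 3.10.9 under Python 3.11.15.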

Additional observations from a re-analysis of the deposited data

How the results depend on the processing

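Of 138 values computed under other settings, 90 stayed within 1 SD of the reported ratio or within 1.5 times the reported count, 45 moved further and 3 changed the direction of a difference whose groups did not overlap. The ratio of peak numbers over the 7 genes was 1.33 with flanks of 10 kb, 1.36 in the gene bodies, 1.80 with a −log10 q of at least 5 and 1.14 with the same number of top peaks, and 1.44 to 1.59 with 1 library left out. Genes whose numbers did not overlap were 3 with flanks of 10 kb and 5 to 7 with 1 library left out. These 3 ratios were 0.875 (flanks of 10 kb) and 0.800 (gene body) for Fgf18 and 0.684 (same number of top peaks) for Spry2. Where the groups overlapped, 4 more ratios fell from above to below 1, at 0.771 for Fgfr1 and 0.811 for Fgf2 with the same number of top peaks, and at 0.974 and 0.952 for Fgf2 without P0 library A and without P8 library B. The ratio of Fgfr3 ran from 2.83 to 3.64 with 1 library left out, was 1.97 with flanks of 100 kb and 4.71 with a −log10 q of at least 5. The pathway list had 12 genes higher at P0 with the same number of top peaks, and 28 to 44 with 1 library left out, the 44 without P0 library B. P0-only sites numbered 26 with a −log10 q of at least 5, 18 with the same number of top peaks and 44 to 63 with 1 library left out, the 63 without P0 library B. P8-only sites numbered 2 with a reciprocal overlap of 50%, 0 with a −log10 q of at least 5, 5 with the same number of top peaks and 2 to 8 with 1 library left out, the 8 without P8 library B, the 2 without P0 library B and 5 without P0 library A or P8 library A. Shared sites with a higher fold enrichment at P0 were 11 after division by the library median and 29 to 35 with 1 library left out, the 35 without P8 library B. Those higher at P8 were 30 after division by the library median, 19 by rank within the library and 10 to 18 with 1 library left out (12 without P0 library A, 13 without P0 library B, 18 without P8 library A and 10 without P8 library B). Leaving out a library lets a pattern rest on 3 libraries, which raises these counts by construction, and the cause of the other changes was not tested. The pileup over the lowest background was a setting chosen after seeing the data and gave 29 sites higher at P0 and 5 at P8. The local tag density over the lowest background was not a planned measure either. No paired analysis was possible because the peak lists carry no replicate numbers. The p-values say nothing of stability at 2 libraries a group, and the absence of a peak at P8 is absence of a call at a lower depth, not a measured value.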
